A study of Mus musculus with 6 samples.

Results

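The genes described here are 8 kallikreins of the skin, *Klk5*, *Klk6*, *Klk7*, *Klk8*, *Klk10*, *Klk11*, *Klk13* and *Klk14*, and *Spink5*, the gene of an inhibitor of some of them. They were chosen by gene symbol in the deposited expression table, which held all 9 of them among its 15280 genes. RNA-Seq data came from 3 parous female BK5.ATF3 mice, in which a bovine cytokeratin 5 promoter drives *ATF3* in basal epithelial cells. From each mouse, 1 mammary tumor (libraries T11035, T11640 and T9232) was compared with the normal, adjacent mammary gland (M11035, M11640 and M9232), so n = 3 for each tissue. All mice had raised a litter, and tumors of this line, which arise at an age of 6 to 12 months, were taken once they measured 1.5 cm. The age of each of the 3 mice is not given in the sources used here. Both tissues carried the transgene and no wild-type sample was analysed here, so tumor is compared with gland and the effect of the transgene itself is not measured.

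Kallikreins are secreted serine proteases. In the outer layers of the epidermis they form a cascade in which one kallikrein activates the next, and the active enzymes cut the adhesion proteins that hold dead surface cells together, so that the cells are shed. *Spink5* encodes LEKTI, a protein of many Kazal-type domains that is cut into fragments, and these bind and block KLK5, KLK7 and KLK14. Loss of LEKTI causes Netherton syndrome, with unchecked shedding and a failed skin barrier.

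The 8 kallikreins share one fold and one catalytic mechanism. The stretch of coding sequence around the catalytic serine is shown for each, because it is the part of the enzymes that does the cutting and it shows how close the 8 genes are. The sequences are from the GENCODE vM1 transcripts on mm9, 30 bases each, 5′ to 3′, with the codon of the catalytic serine in capitals.
*Klk5*: tgccagggtgatTCCggaggtcctgtggtc
*Klk6*: tgtcagggtgatTCTggaggtcccctagta
*Klk7*: tgcaatggtgacTCAggggggcccttggtg
*Klk8*: tgccagggtgacTCAggaggccctctggtg
*Klk10*: tgccagagtgacTCCggtggccccctggtg
*Klk11*: tgtcagggtgacTCTggaggccccctggtc
*Klk13*: tgtgagggtgatTCTgggggcccactgatt
*Klk14*: tgtcagggtgatTCTgggggacccctggtg
Of the 30 positions, 17 held the same base in all 8 genes, and any 2 of the genes differed at 4 to 10 positions. The serine codon was TCT in 4 genes, TCC in 2 and TCA in 2. Over the whole coding sequences, this stretch included, the genes were further apart. These sequences run from 750 to 882 bases, and over their aligned bases the 28 pairs were between 62.6% and 69.1% identical. Over whole transcripts, the longest exact run shared by any pair was 20 bases. In a search of the protein-coding transcripts of GENCODE vM1 for stretches of at least 76 bases, the length of a read, and at least 95% identity, *Klk14* was the only member with a match to another gene. Its bases 855 to 958 matched transcripts of 12 other genes, none of them a kallikrein. The exons of *Klk8* and *Klk14* also overlap *2310002F09Rik*, which is not a row of the table, and since strand-specific counting is not stated their fragments cannot be told apart from that gene.

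Expression was deposited as CPM, the fragments of a gene scaled to a library of fixed size, with edgeR's effective library size in the place of the plain total. Libraries held between 4750989 and 7806908 fragments on genes. A floor of 3 fragments, taken as the limit of detection, was between 0.393 and 0.610 CPM, and such floors and all counting intervals cover counting error only. Tumor and gland were compared with the two-sided moderated test of limma, run on log2(CPM + 0.5), and p-values of all 15280 genes were adjusted together by the Benjamini-Hochberg method. DEGs had to reach an adjusted p of 0.05 or lower and at least a doubling or halving, that is, a log2 fold change (log2FC) of 1 or more in either direction. The log2FC is taken on the log2(CPM + 0.5) scale, which understates the change of genes near 0, and is given with its standard error (SE).

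All 9 genes were upregulated DEGs in the tumors, where 14.5% of all genes were called up and 13.7% down. In each of them the 3 tumors lay above the 3 glands, as they did in 27.6% of all genes. Each tumor was therefore also above the gland of the same mouse. The log2FCs ran from 2.92 for *Klk14* to 8.44 for *Klk7*, with a median of 4.60, beside a median of -0.003 over all genes. In the order of all log2FCs from the highest down, the members stood between place 9 and place 533. The authors kept genes with at least 10 fragments over all libraries. *Klk5*, *Klk6*, *Klk10* and *Klk13* had 0, 1, 6 and 4 fragments in the glands, so they were kept only through the tumors. At such gland levels a call down was not possible for these genes. An exact permutation test of 3 against 3 libraries cannot go below p = 0.1, so the calls rest on the variance that limma shares across genes. The measurement is of bulk tissue, in which more cells of a type and more RNA per cell cannot be told apart.

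**Figure D1:**
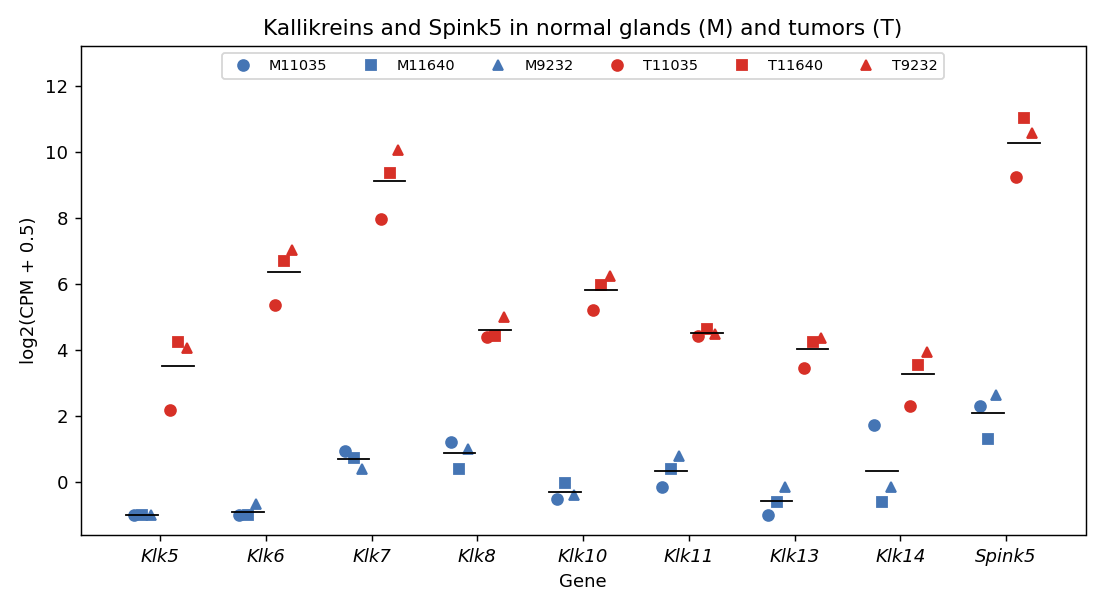
Expression of each member in each library, as log2(CPM + 0.5), with glands in blue, tumors in red, one marker shape per mouse and a black line at the mean of 3. The red points lie above the blue points for all 9 genes, and in every gene the lowest tumor is T11035.

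KLK5 and KLK14 start the cascade, since KLK5 can activate itself and both activate other kallikreins. *Klk5* (mm9, chromosome 7, 51097639 to 51106551) had 0 fragments in each of the 3 glands. In tumors T11035, T11640 and T9232 it was at 4.09, 18.5 and 16.3 CPM, from 272 fragments in all. Its log2FC was 4.51 (SE 0.52, adjusted p = 2.44e-04, limma), a value that depends on the 0.5 added to each CPM. Over the 3 tumors together these fragments came to 13.8 CPM, and a floor of 3 fragments over the 3 glands together was 0.164 CPM. The pooled tumors were thus at 84.2 times that floor. The exact 95% counting interval of the pooled ratio, which has no upper end, starts lower, at 68.0. With *Klk5* set at 84.2-fold, a value without the added 0.5, the median log2FC of the 9 members was 6.10.

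*Klk14* (chromosome 7, 50945788 to 50950906) was at 2.85, 0.165 and 0.410 CPM in glands M11035, M11640 and M9232 and at 4.47, 11.1 and 14.8 CPM in the tumors of the same mice. The tissues did not overlap, but in the mouse of T11035 gland and tumor were close, with 14 and 24 fragments. The difference between tumor and gland was 0.57 on the log2 scale in that mouse and 4.13 and 4.07 in the mice of T11640 and T9232. *Klk14* had the smallest log2FC of the members, 2.92 (SE 0.64, adjusted p = 0.00675, limma).

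KLK7 is the chymotrypsin-like enzyme of the group and a main protease of skin shedding. *Klk7* (chromosome 7, 51066814 to 51071729) was at 1.42, 1.16 and 0.821 CPM in the glands and at 250.1, 660.0 and 1056 CPM in the tumors. Tumor T9232 was the highest and T11035 the lowest, and even T11035 was far above every gland. The log2FC was 8.44 (SE 0.46, adjusted p = 5.15e-06, limma). With 20 fragments in the 3 glands and 13428 in the 3 tumors, the ratio of the pooled tissues was 624, with an exact 95% counting interval of 404 to 1022.

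KLK6 and KLK8 are trypsin-like enzymes that are made in the brain and also in the epidermis. *Klk6* (chromosome 7, 51079869 to 51087397) was found with 1 fragment in gland M9232 and none in the others, and at 40.6, 102 and 129 CPM in T11035, T11640 and T9232. The log2FC was 7.24 (SE 0.41, adjusted p = 6.44e-06, limma). Because 1 gland fragment stands under it, the pooled ratio of 1725 has a wide counting interval, from 309 to 68186. *Klk8* (chromosome 7, 51052947 to 51059192) was at 1.83, 0.826 and 1.50 CPM in the glands and at 20.7, 20.8 and 31.3 CPM in the tumors, a log2FC of 3.73 (SE 0.30, adjusted p = 3.22e-05, limma). Its tumors T11035 and T11640 were level, and T9232 was 1.52 times as high as T11035.

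*Klk10*, *Klk11* and *Klk13* are the other members of the group that the upper epidermis expresses. *Klk10* (chromosome 7, 51036424 to 51040780) was at 0.203, 0.496 and 0.274 CPM in the glands, at or under the floor of 3 fragments in each, and at 36.8, 62.3 and 74.6 CPM in the tumors. Its log2FC of 6.10 (SE 0.31, adjusted p = 3.64e-06, limma) had the smallest adjusted p of the 9. *Klk11* (chromosome 7, 51029987 to 51034628) rose from 0.407, 0.826 and 1.23 CPM to 20.8, 24.5 and 21.9 CPM, a log2FC of 4.16 (SE 0.29, adjusted p = 1.70e-05, limma). Its 3 tumors were nearly level, with the highest at 1.18 times the lowest. *Klk13* (chromosome 7, 50967937 to 50982128) was at 0, 0.165 and 0.410 CPM in the glands and at 10.6, 18.3 and 20.2 CPM in the tumors, a log2FC of 4.60 (SE 0.36, adjusted p = 2.90e-05, limma). *Klk5*, *Klk6*, *Klk10* and *Klk13* were thus at or under 3 fragments in every gland, whereas the other 5 members were above that floor in at least 1 gland.

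*Spink5*, the inhibitor, lies apart from the kallikreins on chromosome 18 (44122889 to 44182155). It was at 4.47, 1.98 and 5.75 CPM in glands M11035, M11640 and M9232 and at 600.1, 2079 and 1516 CPM in the tumors. The log2FC was 8.18 (SE 0.48, adjusted p = 6.97e-06, limma), and the pooled ratio, from 76 gland and 29202 tumor fragments, was 357 (counting interval 285 to 453). Unlike *Klk7*, it was highest in T11640 and not in T9232.

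**Figure D2:**
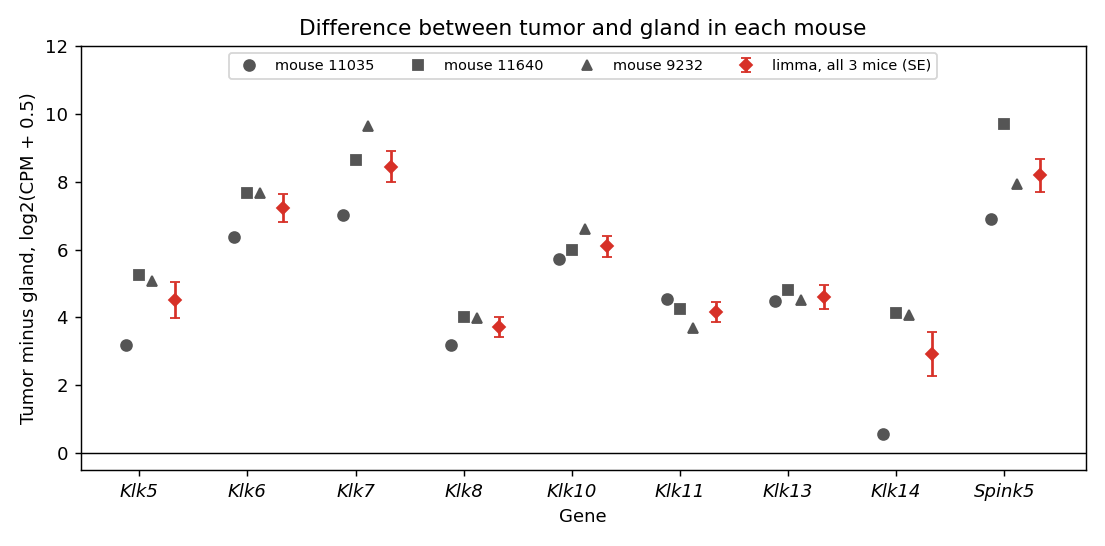
Difference between the tumor and the gland of each mouse in log2(CPM + 0.5) for the 9 members (grey, one marker shape per mouse), beside the log2FC of limma with its standard error (red). All 27 grey points lie above 0, which follows from all tumors lying above all glands. The lowest of them is *Klk14* in the mouse of T11035, at 0.57.

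Fragments per gene depend on its length, so the members were set in order by CPM per kb of exon. In the tumors the order was *Klk7* (376 ± 231 CPM per kb, SD, n = 3), *Spink5* (292 ± 156), *Klk6* (62.2 ± 31.1), *Klk10* (42.8 ± 14.2), *Klk8* (18.4 ± 4.62), *Klk13* (15.9 ± 4.94), *Klk11* (15.2 ± 1.28), *Klk5* (10.5 ± 6.26) and *Klk14* (7.98 ± 4.13). Neighbours in this order were separated beyond the range of the tumors in 2 places, between *Spink5* and *Klk6* and between *Klk10* and *Klk8*. Elsewhere the ranges of neighbours overlapped, so their order is not settled by 3 tumors. Within single tumors *Klk6* was above *Klk10*, and *Klk11* above *Klk5*, in all 3, and *Klk7* was above *Spink5* in 2 of the 3.

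The sum of the 8 kallikreins was 6.71, 3.63 and 4.79 CPM in glands M11035, M11640 and M9232 and 388, 918 and 1364 CPM in the tumors of the same mice. *Klk7* made up 64.4%, 71.9% and 77.4% of that sum in T11035, T11640 and T9232, and 21.2%, 31.8% and 17.1% in the glands, where the whole sum rests on 22 to 35 fragments. The ratio of *Spink5* to the summed kallikreins was 0.667, 0.545 and 1.20 in the glands and 1.55, 2.27 and 1.11 in the tumors. The tissues overlapped, since tumor T9232 was below gland M9232. Mouse by mouse, in the order T11035, T11640 and T9232, the summed kallikreins were 57.9, 253 and 285 times as high in the tumor as in the gland, and *Spink5* 134, 1049 and 264 times. The ratio between them was 2.32, 4.15 and 0.926 times that of the gland. On the log2 scale the mean ratio was 0.65 in the tumors and -0.34 in the glands, a difference of 0.997 beside a pooled SD of 0.51. No test was made of this ratio, because its members were chosen. Exon length was 4789 bases for *Spink5* and 1033 to 1745 bases for the kallikreins, and the ratio was not corrected for it. A ratio above 1 therefore does not mean more transcripts of *Spink5* than of the kallikreins. The sum also holds kallikreins that are not named above as blocked by LEKTI.

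**Figure D3:**
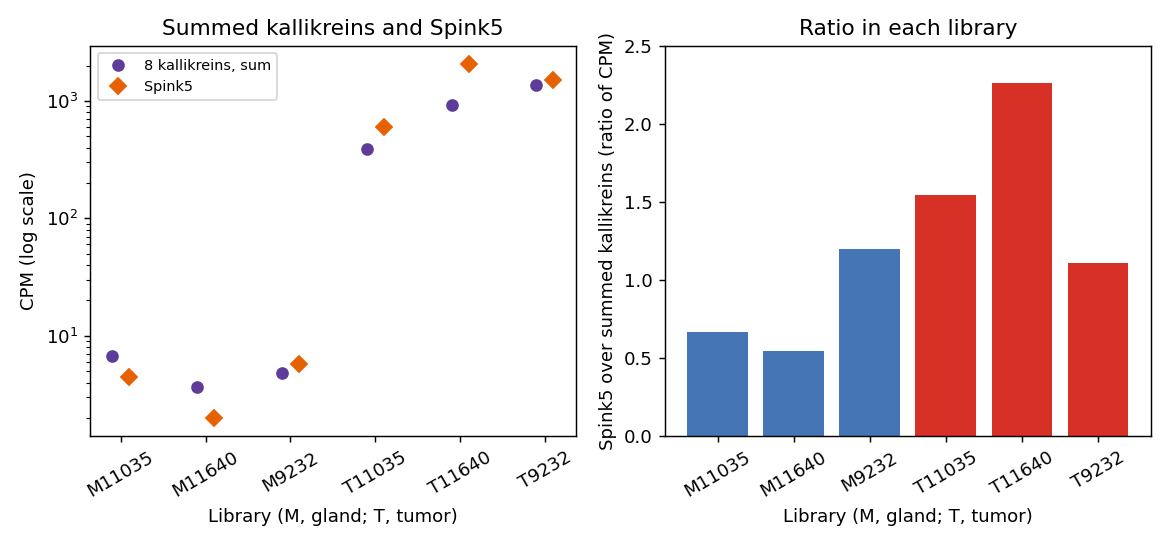
Left, CPM of the summed kallikreins and of *Spink5* in each library on a log scale. Right, their ratio in each library, not corrected for exon length, with glands in blue and tumors in red. T9232 (1.11) is lower than M9232 (1.20), and the other tumors are above all glands.

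The 3 tumors did not express the members equally. T11035 was the lowest tumor for 9 of the 9 members, as it was for 40.4% of all genes and for 49.9% of the 2212 genes called up. T9232 was the highest for 6 members, and T11640 for *Klk5*, *Klk11* and *Spink5*. The ratio of T9232 to T11035 was 4.22 for *Klk7*, 3.99 for *Klk5*, 3.32 for *Klk14*, 3.18 for *Klk6* and 2.53 for *Spink5*. It was 1.52 for *Klk8*, 1.91 for *Klk13* and 2.03 for *Klk10*, and close to 1 for *Klk11*. Tumors have 1 library each, so a difference between 2 of them has no replicate.

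Genes of stratified squamous epithelium rose in the same tumors. All 12 of the listed markers were called up, where 14.5% of all genes were, with a median log2FC of 5.92. Their summed level went from 57.9 to 114 CPM in the glands to 3239 to 4758 CPM in the tumors. This list, like the others, was chosen with earlier results of these data known. The largest change on the list was that of *Krt1*, a keratin of the suprabasal epidermis (log2FC 8.64 with an SE of 0.25, adjusted p = 4.30e-07, limma), and the smallest that of *Tgm1*, the transglutaminase that crosslinks the cornified envelope (3.06 with an SE of 0.24, adjusted p = 3.09e-05, limma). Of these markers, *Ivl*, *Lor* and *Sprr1b* had 4, 0 and 4 fragments in the glands. They were kept in the table only through the tumors and could not be called down. Hair follicle genes moved the same way, with 10 of 10 called up and a median of 5.53, and a summed level of 2.87 to 7.32 CPM in the glands and 1056 to 2186 CPM in the tumors. Their ends were *Tchh*, the trichohyalin of the inner root sheath, at 8.37, and *Krt35*, a keratin of the hair shaft, at 1.75 (adjusted p = 3.31e-06 and 0.0269, limma). The call of *Krt35* was lost without gland M11035, gland M11640 or tumor T11640 (adjusted p = 0.0556, 0.0630 and 0.0720, limma). *Krt35* had 0 fragments in the glands, and the other hair follicle genes except *Tchh* and *Krt73* had at most 7. These genes were also kept only through the tumors and could not be called down. The part of either cell type in the rise of the kallikreins was not tested.

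The squamous genes also differed between the tumors, which was looked at after the values had been seen. In T9232 against T11035, the ratio was 4.46 for *Sbsn*, 3.63 for *Krtdap*, 3.69 for *Ivl* and 3.31 for *Sprr1b*, all genes of late epidermal differentiation, and 17.98 for *Lor*, on 1.12 CPM in T11035. It was lower for the other genes of the list, at 1.64 for *Krt10*, 1.60 for *Tgm1*, 1.43 for *Krt14*, 1.28 for *Calml3*, 1.16 for *Krt5*, 0.906 for *Krt1* and 0.595 for *Trp63*, the master transcription factor of stratified epithelium. The members spread over much of this range. *Klk7*, *Klk5*, *Klk14* and *Klk6* had ratios like those of the first genes, and *Klk8*, *Klk11* and *Klk13* ratios nearer to those of *Krt10*, *Tgm1* and *Krt5*. Of the 10 hair follicle genes, 10 were highest in T11640 and 3 were lowest in T11035.

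**Figure D4:**
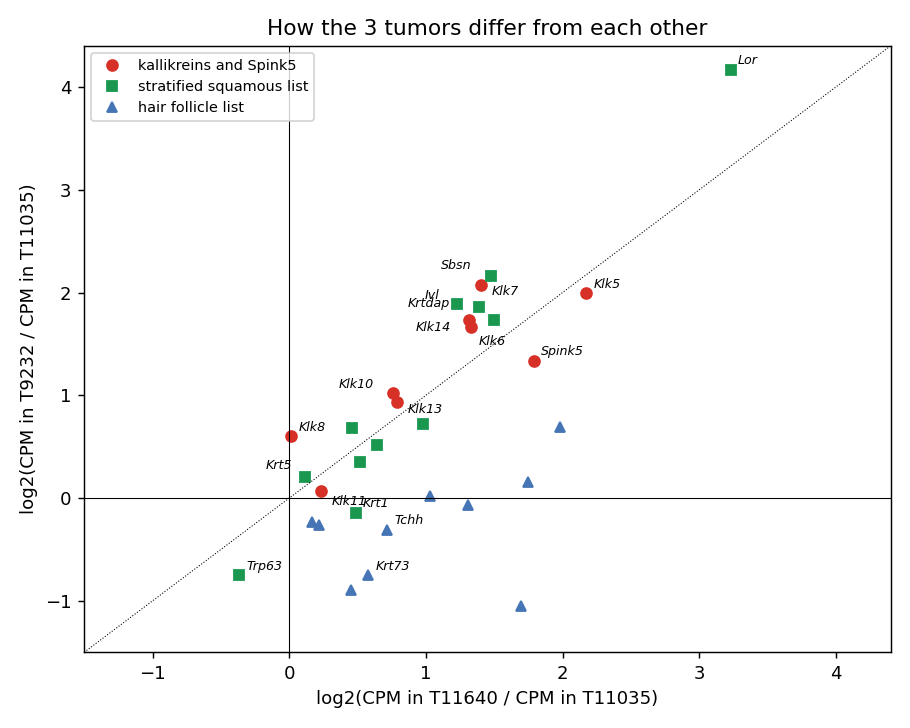
Log2 ratio of tumor T11640 to T11035 (horizontal) and of T9232 to T11035 (vertical) for the 9 members (red circles), 12 stratified squamous genes (green squares) and 10 hair follicle genes (blue triangles), with a dotted line where T11640 equals T9232. *Klk7*, *Klk6* and *Klk14* lie near *Sbsn*, *Ivl* and *Krtdap* above the line, and *Klk8* and *Klk11* lie near *Krt5*. Of the members, *Spink5*, *Klk5* and *Klk11* lie below the line, and the hair follicle genes all lie below it.

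Genes of the simple mammary epithelium were present in both tissues. Of 8 listed, 5 were called up and 2 down, from *Krt7* (log2FC 2.87, adjusted p = 0.00112, limma) to *Elf5*, a transcription factor of the luminal lineage (-2.59, adjusted p = 0.00154, limma), and their sum was 289.5 to 622 CPM in the glands and 725 to 1017 CPM in the tumors. All 8 adipocyte markers were called down, where 13.7% of all genes were, from *Pparg* at -3.55 to *Adipoq* at -7.00. Their sum fell from between 3282 and 6446 CPM to between 145 and 209 CPM. All 6 B cell markers (*Pax5* at -3.69 to *Ms4a1* at -6.10) and all 6 T cell markers (*Cd4* at -2.59 to *Cd8a* at -3.76) were also called down. Of 4 neutrophil genes 3 were called up, with *S100a8* at 4.34, and *Mpo* was called down at -1.96. *S100a8* is also made by stressed keratinocytes. Of 5 macrophage genes, *Cd163* was called down (-2.28) and none up. Sebaceous gland genes were split, with *Krt79* called up at 3.58 and 2 of 4 called down, among them *Mc5r* at -1.90. Of the salivary gland list only *Amy1* was in the table, called down at -6.59. Of the melanocyte list *Tyr* and *Pmel* were in the table, with log2FCs of 0.15 and -0.49 (adjusted p = 0.783 and 0.395, limma). The share of adipocytes or lymphocytes in each tissue was not measured, and its part in the level of the members was not tested.

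*Atf3* itself, measured as the mouse gene, was at 4.47, 8.09 and 22.6 CPM in glands M11035, M11640 and M9232 and at 13.4, 18.3 and 19.3 CPM in the tumors. It did not pass the test (log2FC 0.80 with an SE of 0.49, adjusted p = 0.223, limma). Without gland M9232, the highest library, it was called up with a log2FC of 1.41 (adjusted p = 0.00804, limma). The species of the transgene is not given in the sources used here, so these values may not include its transcript.

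The kallikrein genes lie side by side in one cluster. In the mm9 annotation it holds 26 kallikrein genes over 539 kb of chromosome 7 (50945788 to 51484987), from *Klk14* at one end to *Klk1* at the other. The first 161 kb, from *Klk14* to *Klk5*, hold 10 genes, all 10 were in the table, and all 10 were called up. Apart from the 8 members these were *Klk9*, which rose from 0.203, 0.496 and 0.821 CPM to 15.1, 37.7 and 55.4 CPM (log2FC 5.05 with an SE of 0.47, adjusted p = 7.16e-05, limma), and *Klk12*, from 0.407, 0.165 and 0 CPM to 2.61, 7.47 and 9.59 CPM (3.23 with an SE of 0.49, adjusted p = 9.85e-04, limma). *Klk12*, with 3 fragments in the glands, was kept in the table only through the tumors, as were *Klk5*, *Klk6*, *Klk10* and *Klk13*. The other 16, *Klk4*, *Klk15*, *Klk1* and the *Klk1b* genes, were not rows of the table and are not in this count. The *Klk1b* genes are the rodent branch of the family, many of them expressed in the salivary gland.

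The genes of the table nearest to the cluster did not pass the test. On the side of *Klk14* the nearest gene of the table, *Ctu1*, had a log2FC of -0.07 (SE 0.30, adjusted p = 0.883, limma). Beyond the far end of the cluster the nearest was *2410002F23Rik*, at 0.53 (SE 0.30, adjusted p = 0.195, limma). Among the next 10 genes of the table on each side, 1 was called up and 2 were called down on either side. Over all genes, 14.5% were called up and 13.7% down. The called genes were *Siglece* at 2.18, *Nkg7* at -3.11 and *Etfb* at -2.13 on the side of *Klk14*, and *Clec11a* at 1.19, *Spib* at -4.16 and *Mybpc2* at -5.10 on the other. *Siglece* and *Spib* are genes of immune cells and *Mybpc2* is a gene of skeletal muscle. The call of *Clec11a* (adjusted p = 0.0362, limma) was the closest of these to the threshold and was lost with the mouse as a block (adjusted p = 0.0576, limma). The call of *Mybpc2* was lost without gland M11640 or without any 1 of the tumors (adjusted p between 0.0564 and 0.0604, limma).

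**Figure D5:**
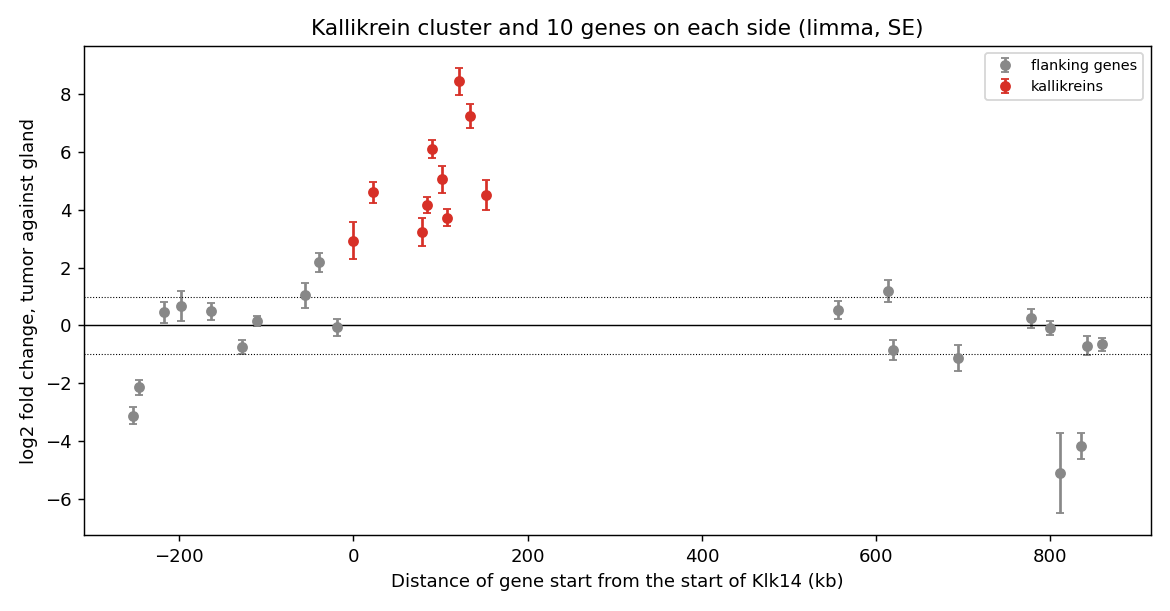
The log2FC of tumor against gland, with its standard error, for the 10 kallikreins of the table (red) and the 10 nearest genes of the table on each side (grey), by the distance of each gene's start from that of *Klk14* in kb. The red points run from 2.92 to 8.44, and the grey points nearest to them, at -18.4 and 556 kb, lie at -0.07 and 0.53.

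Promoter sequences were searched because ATF3 is a factor of the ATF/CREB family that can also pair with Jun proteins. RefSeq promoters on GRCm38.p6, from 250 bases before to 50 bases after a start site, were given for 8 of the 9 members, with 10 windows for the 8 kallikreins. *Spink5* had no entry. On either strand, 0 of the 10 windows held the AP-1 letters TGANTCA, 0 the CRE letters TGACGTCA and 0 the letters TATAAA. Over all 32851 promoters of the table the shares were 7.81%, 1.79% and 13.6%. A window without any of these letters is therefore common. The window of *Klk7*, the kallikrein with the highest level per kb in the tumors, is shown as an example, at chr7:43811044-43811343 on the plus strand, with the first base after the 250 upstream bases in capitals.
*Klk7* promoter: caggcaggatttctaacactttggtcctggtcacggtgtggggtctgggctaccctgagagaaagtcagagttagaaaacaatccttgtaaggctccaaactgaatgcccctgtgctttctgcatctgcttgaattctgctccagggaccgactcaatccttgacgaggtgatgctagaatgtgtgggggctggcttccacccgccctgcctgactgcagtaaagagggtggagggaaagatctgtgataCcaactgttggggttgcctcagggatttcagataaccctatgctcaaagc
The absence of these letters from the window says nothing about binding elsewhere, and binding was not measured.

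Kallikreins are made as inactive precursors, and other proteases can activate them. Of 9 such proteases listed, 6 were in the table, and 4 were called up and 0 down, with a median log2FC of 1.69. Over all genes, 14.5% were called up and 13.7% down. *Plau*, the urokinase, rose from 15.2, 40.0 and 32.8 CPM to 102, 121 and 161 CPM (log2FC 2.19 with an SE of 0.34, adjusted p = 0.00118, limma). *St14*, which encodes matriptase, a membrane protease that can activate kallikreins in the epidermis, rose from 6.51, 8.92 and 17.1 CPM to 27.2, 35.1 and 53.0 CPM (1.84 with an SE of 0.37, adjusted p = 0.00426, limma). *Tmprss11d* and *Tmprss13*, both membrane proteases of surface epithelia, had log2FCs of 2.99 and 1.54 (adjusted p = 0.00390 and 0.0103, limma), and *Tmprss13* lost its call without T11640 (adjusted p = 0.0525, limma). The genes that did not pass, named after their values were seen, were *Prss8*, the prostasin gene, at 0.81 (adjusted p = 0.121, limma) and *Hpn*, the hepsin gene, at -0.995 (adjusted p = 0.0940, limma). *Prss8* was called up without gland M9232 (1.20, adjusted p = 0.0223, limma), and *Hpn* was called down without gland M11035 (-1.37, adjusted p = 0.0280, limma). The largest log2FC of this list, that of *Tmprss11d*, was close to that of *Klk14* and under those of the other members.

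Among the other protease inhibitors, 6 of 16 listed were in the table, and 3 were called up and 0 down, with a median log2FC of 1.65. Over all genes, 14.5% were called up and 13.7% down. *Spink12*, a Kazal-type inhibitor of the same family as *Spink5* that lies near it on chromosome 18 (44264061 to 44268197), was at 0.203, 0 and 0 CPM in the glands and at 22.9, 129 and 49.1 CPM in the tumors (log2FC 6.57 with an SE of 0.55, adjusted p = 4.03e-05, limma). Like *Spink5*, it was highest in T11640, at 5.63 times T11035. *Spint1*, the inhibitor of matriptase (HAI-1), rose from 3.86, 7.27 and 11.9 CPM to 35.4, 52.7 and 58.7 CPM (2.69 with an SE of 0.37, adjusted p = 6.19e-04, limma), and *Spink8* had a log2FC of 2.28 (adjusted p = 0.00316, limma). With 1 and 4 fragments in the glands, *Spink12* and *Spink8* were kept only through the tumors and could not be called down. *Spint2*, *Slpi* and *Serping1*, named after their values were seen, did not pass, at 0.45, 0.57 and 1.01 (adjusted p = 0.175, 0.562 and 0.0945, limma). *Serping1* was called up with the mouse as a block (adjusted p = 0.00420, limma) and without gland M11640 (1.39, adjusted p = 0.0356, limma). *Slpi*, a secreted inhibitor of leukocyte proteases, was spread widely within each tissue, from 16.0 to 122 CPM in the glands and from 26.2 to 112 CPM in the tumors.

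The proteins that kallikreins cut, and the receptors and cytokines downstream of them, were also listed. Of 13 genes 12 were in the table, and 7 were called up and 0 down, with a median log2FC of 2.24. Over all genes, 14.5% were called up and 13.7% down. One of the 7, *Dsg1c*, was at the edge of detection and lost its call under 5 of the 14 alternatives. With 5 and 1 fragments in the glands, *Dsg1c* and *Cdsn* were kept only through the tumors and could not be called down. The 3 largest changes were those of desmosomal cadherins of the upper epidermis, *Dsc1* at 9.26, *Dsg1a* at 7.85 and *Dsg1b* at 7.53 (adjusted p = 1.67e-06, 1.48e-06 and 6.49e-07, limma). The *Dsg1* genes are close copies of each other, and their fragments could have been split between them. *Dsg1a* was at 1.63, 0.661 and 1.92 CPM in the glands and at 379, 574 and 338 CPM in the tumors, so that its lowest tumor was T9232 and not T11035. *Cdsn*, the gene of corneodesmosin, which KLK5 and KLK7 cut during shedding, was named after its values were seen. It had 1 fragment in the glands and was at 15.3, 56.5 and 58.3 CPM in the tumors (log2FC 6.09 with an SE of 0.49, adjusted p = 3.55e-05, limma). *F2rl1*, which encodes PAR2, the receptor that kallikreins activate on keratinocytes, was at 21.8, 10.4 and 17.9 CPM in the glands and at 24.9, 27.1 and 41.7 CPM in the tumors. Its adjusted p was 0.0412, but the log2FC of 0.91 was under the threshold, so it was not called. Without gland M11035 it was called up, with a log2FC of 1.13 (adjusted p = 0.0229, limma). *Tslp*, a cytokine of the barrier that is induced through PAR2 in Netherton skin, rose from 0.610, 1.49 and 1.78 CPM to 13.6, 9.83 and 26.5 CPM (log2FC 3.20 with an SE of 0.42, adjusted p = 4.55e-04, limma). These last 2 genes were also named after their values were seen.

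Profiles like that of the kallikreins were sought over the 6 libraries. Each gene's log2(CPM + 0.5) was centred on its mean and set against the mean of the 8 kallikreins, by the root mean square distance over the 6 libraries. Over 14703 genes the median distance was 2.65 on the log2 scale. The nearest were *Sprr2i* (0.174), *Tmprss11bnl* (0.212), *Pglyrp3* (0.214), *2310007B03Rik* (0.230) and *Sdr16c6* (0.240). All 5 were called up, which follows from picking them by a profile that rises in the tumors. *Sprr2i* encodes a small proline-rich protein of the cornified envelope and has many close copies, which could share its fragments, *Tmprss11bnl* a membrane serine protease, and *Pglyrp3* a peptidoglycan recognition protein of surface epithelia. *Sprr2i* was at 0 CPM in all glands and at 8.93, 23.5 and 20.4 CPM in T11035, T11640 and T9232. *2310007B03Rik* and *Sdr16c6* were also at 0 CPM in all glands, where only the added 0.5 sets their value. The members themselves lay between 0.418 (*Klk13*) and 1.64 (*Klk7*) from that mean, and *Spink5* at 1.54. This is a description of 6 libraries in 2 tissues, and it is set mainly by the difference between the tissues.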

How the data were processed

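Total RNA from 3 mammary tumors and the 3 matched glands was sequenced as 76-base read pairs. Per the labels and the methods, the authors used CASAVA 1.8.2, mapped reads to mm9 with TopHat2 2.0.3, counted fragments per RefSeq gene with HTSeq 0.5.3p9, and removed genes with fewer than 10 fragments. The authors deposited a normalized signal, CPM on the effective library size of edgeR 3.6.1. All values (100%, within 0.01) were whole multiples of 1 step per library, so the deposited signal gave back the fragment counts. The test was that of limma 3.58.1 (R 4.3.3), with log2(CPM + 0.5) as input, a trend of variance on mean, and mice not blocked. The planned test for CPM was kept although the columns do not share 1 total, which made the unit a signal. CPM per kb uses the exon length of GENCODE vM1 (mm9), and BLAST 2.17.0 searched its protein-coding transcripts.

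The tumor and the gland of a number come from the same mouse, so the numbers pair the samples. The deviations from the tissue means correlated within the mice of T11035, T11640 and T9232 with r = 0.107, 0.151 and 0.0168 over 14712 genes.

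Named genes are the members, the cluster, the called genes of each pathway list (the 3 largest rises and 2 largest falls where over 5 passed), the ends of each cell type list, and the 5 nearest profiles. The members and lists were chosen with earlier results of these data known. Alternatives were pseudocounts of 0.1 and 1, a filter at a mean of 1 CPM, the mouse as a block, other scalings, edgeR 4.0.16 and DESeq2 1.42.0 on recovered fragments, and leaving out each library. Libraries of a tissue were not copies (lowest chi-square per degree of freedom 13.0). The authors' miRNA arrays, RT-qPCR and knockdown experiments were not analysed here.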

Additional observations from a re-analysis of the deposited data

How the results depend on the processing

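Each of the 9 members was called up under all 14 alternatives, so that 126 of 126 values kept their direction and their call. With the mouse as a replicate block the count was 9, and the adjusted p of *Klk14* was 0.0156 (limma). Its adjusted p ran from 2.07e-04 with DESeq2 to 0.0362 without tumor T9232, and its log2 fold change from 2.46 to 3.64. The value of *Klk5*, with 0 fragments in the glands, moved most, from 3.58 with pseudocount 1 to 9.37 with edgeR. The number of all genes called up was between 1952 and 2265 and the number called down between 1822 and 2224, and on recovered fragments edgeR called 4462 genes and DESeq2 4436, beside 4309 with limma. Among the 20 flanking genes of the cluster, 2 were called up as reported and 1 with pseudocount 1 and with the replicate block, and 1 to 2 when a library was left out. The gene was *Clec11a*, which lost its call without gland M11640, gland M9232, tumor T11640 or tumor T9232 (adjusted p = 0.0597, 0.0989, 0.131 and 0.111, limma), and by its log2 fold change of 0.995 with pseudocount 1. *Cd163* and *Mpo* also lost their calls without 1 library, *Cd163* without gland M11640, gland M9232, tumor T11035 or tumor T11640 (adjusted p = 0.0801, 0.0597, 0.110 and 0.0874, limma) and *Mpo* without gland M11035, tumor T11640 or tumor T9232 (adjusted p = 0.0656, 0.0884 and 0.0619, limma). *Dsg1c* lost its call with DESeq2 (adjusted p = 0.0610), with pseudocount 1 (log2 fold change 0.89) and without gland M11035, gland M9232 or tumor T11640 (adjusted p = 0.0531, 0.0568 and 0.0665, limma). *Scd3*, the other sebaceous gland gene called down, lost its call without gland M9232, tumor T11640 or tumor T9232 (adjusted p = 0.0602, 0.0590 and 0.0527, limma). The log2 fold change fell below 1 for *Krt18* without tumor T9232 (0.91) and for *Krt19* without gland M11035 (0.99). Among the listed and cluster genes, the replicate block changed the calls of *Clec11a* and *Serping1* only. The difference of the ratio of *Spink5* to the kallikreins ran from 0.73 to 1.29 on the log2 scale, within 1 SD of the reported value under each of its 10 alternatives, and the leave-one-out values span that range. The median log2 fold change of all genes was -0.0151 with plain library sizes and 0.00278 with DESeq2's size factors. Depth limits the gland values most, where 4 members had at most 3 fragments per library.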
